A study of Mus musculus with 32 samples.

Results

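The genes at the core of the epithelial-mesenchymal programme were followed across 8 groups of mouse brain tumour culture: the transcription factor genes Snai1, Snai2, Twist1, Twist2, Zeb1, Zeb2 and Prrx1, the classical cadherin genes Cdh1 and Cdh2, and the epithelial adhesion gene Epcam. They were taken by name, 10 of the 19938 genes that the arrays measured, and each had 1 probe set. Each of 32 neurosphere cultures gave RNA for 1 Affymetrix Mouse Gene 1.0 ST array, and all values below are log2 expression values that the authors made with the robust multi-array average (RMA).

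The starting cells in every group were Trp53-deficient (strain B6;129-Trp53tm1Brd) cells grown as neurospheres from the lateral ventricle wall of postnatal mice. They received 1 or more added oncogenes and were transplanted into the brain, and the tumour cells that expressed the transgene were sorted and grown again as neurospheres. HRAS alone gave gliomas (5 arrays), and HRAS with Bmi1 also gave gliomas (2 arrays). MYC alone (6 arrays), MYC with Ezh2 (5 arrays) and MYC with Bmi1 (3 arrays) gave primitive neuroectodermal tumours, PNET, which are undifferentiated embryonal tumours. HRAS and MYC together gave tumours labelled as resembling atypical teratoid/rhabdoid tumours, AT/RT, an aggressive embryonal tumour type (7 arrays, HRAS+MYC). In the last pair of groups the oncogenes came in sequence: HRAS was added to sphere cells derived from a PNET and secondary tumours were raised (2 arrays, MYC then HRAS), or MYC was added to sphere cells derived from a glioma (2 arrays, HRAS then MYC). No group was free of an added oncogene, and all groups lacked normal Trp53. Whether replicates came from separate tumours or animals is not given in the sources used here, so p-values measure the spread between these arrays, which may be technical.

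Epithelial cells hold together through E-cadherin, the product of Cdh1, and through Epcam, while neural progenitors and mesenchymal cells mainly use N-cadherin, the product of Cdh2. Snail, Twist and Zeb proteins bind E-box DNA motifs and are best known for silencing Cdh1 during the epithelial-mesenchymal transition, EMT, in development and carcinoma. In the nervous system several of them have other roles: Zeb1 and Zeb2 act in neural progenitors and migrating neurons, and Snai2 and Twist1 in the neural crest.

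The Epcam promoter is shown because Epcam had one of the largest differences among the 10 genes and because the E-box form bound by Snail and Zeb proteins occurs in it. The RefSeq promoter table (build GRCm38.p6) held 6 of the 10 genes and had no entry for Snai2, Zeb1, Cdh1 and Cdh2. The 250 bases before the Epcam start site lie at chr17:87635729-87635978 on the plus strand. Capitals mark CACCTG or CAGGTG, which are reverse complements of each other, so that a search for both covers both strands.
Epcam: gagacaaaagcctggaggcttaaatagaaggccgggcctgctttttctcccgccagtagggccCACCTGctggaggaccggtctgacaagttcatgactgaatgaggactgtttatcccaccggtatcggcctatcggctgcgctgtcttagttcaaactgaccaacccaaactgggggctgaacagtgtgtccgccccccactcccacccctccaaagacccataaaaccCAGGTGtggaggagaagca
CACCTG began at position -187 and CAGGTG at position -19, counted back from the start site. Of 32851 promoter windows of 250 bases in the table, 5657 (17.2%) held at least 1 match and 678 (2.06%) held 2 or more. The Snai1 window held 1 match, at -126. The windows of Twist1, Twist2 and Prrx1 and the 4 windows of Zeb2 held none. These matches are a description of the letters and no evidence of binding.

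Ezh2 lay between 12.02 and 12.31 in the MYC+Ezh2 group and between 9.72 and 10.90 on all other arrays. Bmi1 overlapped between MYC+Bmi1 (highest 10.22) and MYC (highest 10.07), so its addition was not apparent there at this level. Bmi1 values of HRAS+Bmi1 and HRAS are not given here, and Myc and HRAS transgene levels were not analysed. On MYC replicates 4 and 5 the neural stem cell gene Sox2 was at 4.85 and 6.62, against 10.74 to 11.58 on the other MYC arrays, and the neuronal gene Neurod1 was at 10.55 and 10.83 against 3.39 to 3.85. Results that involve MYC cells were therefore also computed without these arrays. As a guide to weak signal, 95% of the values of 1027 olfactory receptor genes, a family not expected in neural cells, lay under 5.09, called the olfactory receptor level below.

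**Figure D1:**
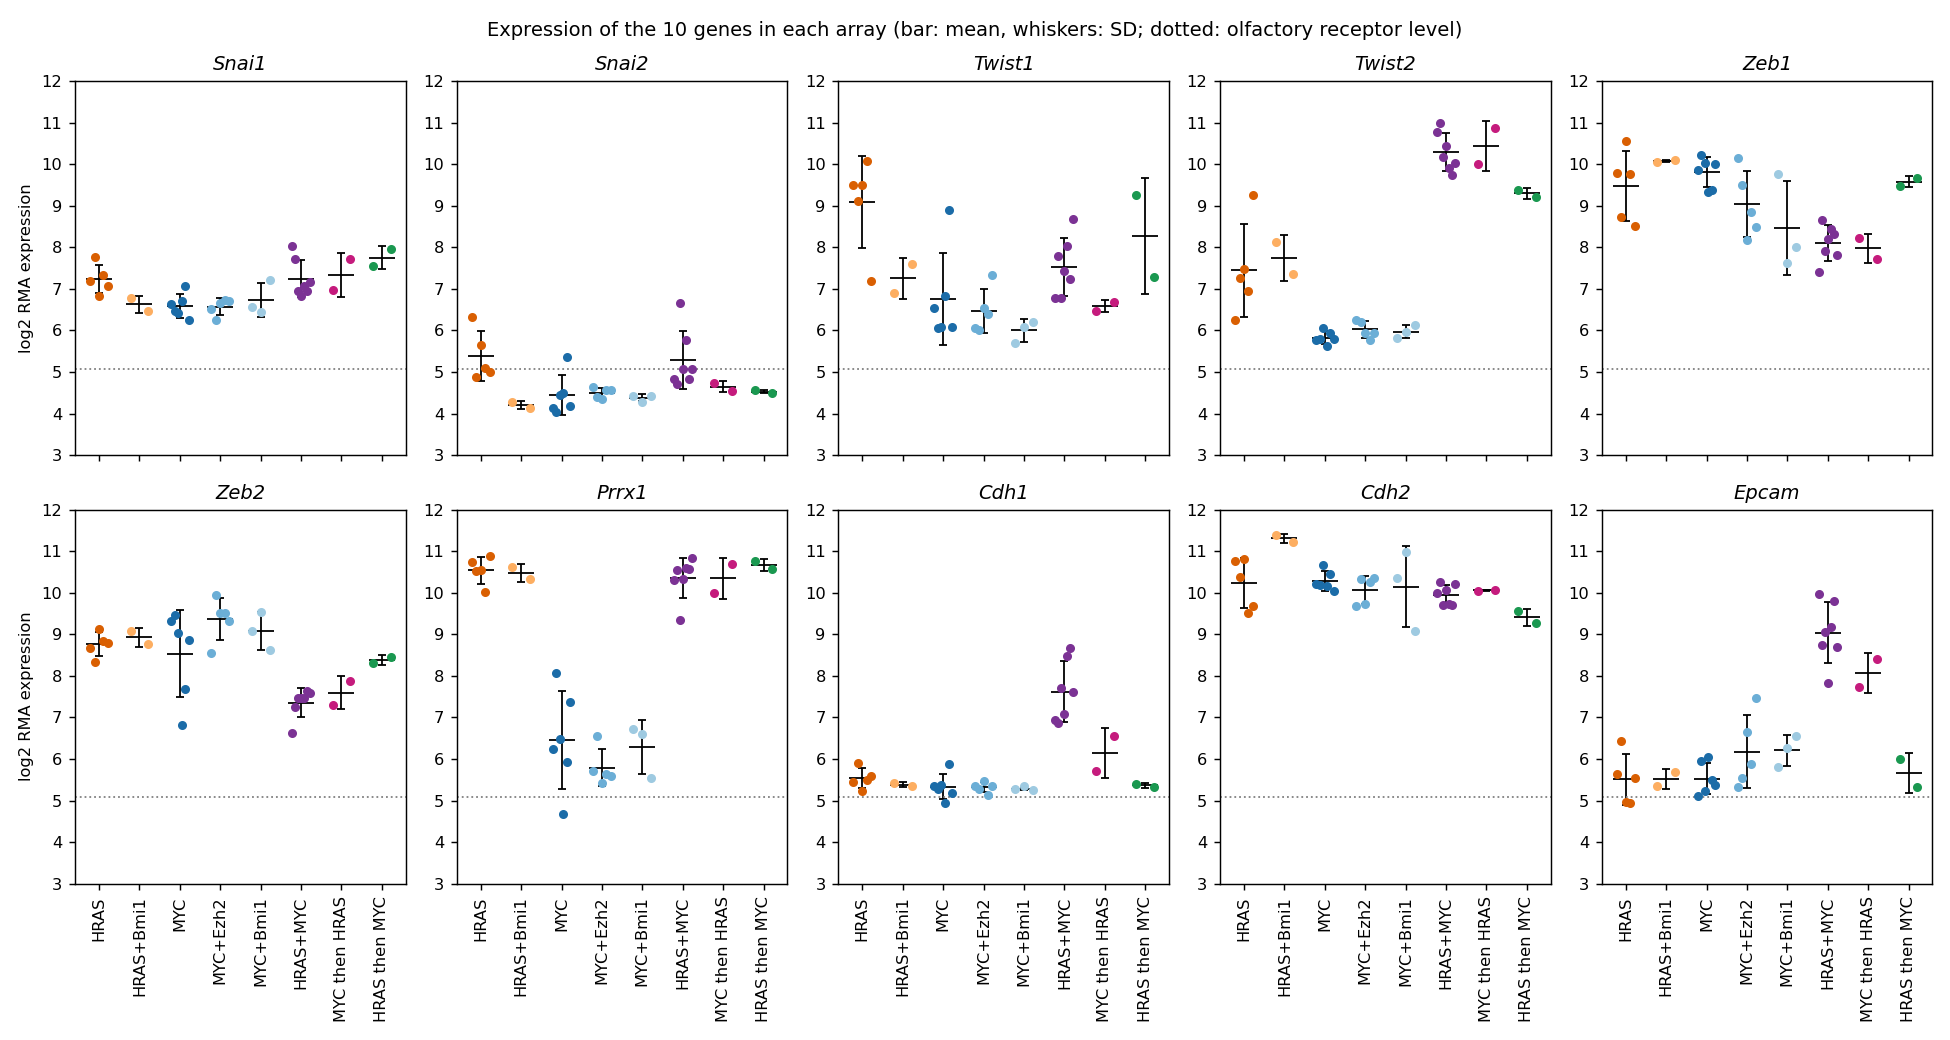
Log2 expression of the 10 genes in each of the 8 groups, with 1 point per array and a bar at the group mean, whiskers of 1 SD, and a dotted line at the olfactory receptor level. Prrx1 and Twist2 separate the arrays with HRAS from those without it, and Cdh1 and Epcam are highest in HRAS+MYC, at up to 8.66 and 9.98.

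Prrx1 and Twist2 were the genes that followed HRAS. Every one of the 18 arrays with HRAS was above every one of the 14 arrays without it, for both genes. Prrx1 ran from 9.35 to 10.88 with HRAS and from 4.68 to 8.08 without, and Twist2 from 6.26 to 10.98 with and from 5.62 to 6.25 without. The other 8 genes overlapped between these sets of arrays. The gap was wide for Prrx1 and narrow for Twist2, whose lowest HRAS array was 6.26 and whose highest array without HRAS was 6.25.

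The comparison of HRAS gliomas with MYC PNET asked how the 10 genes differed between the tumours of the 2 single oncogenes. Of the 10 genes, 5 passed at an adjusted p under 0.05 in limma's moderated test with Benjamini-Hochberg adjustment over all genes, and all 5 were higher in HRAS: Prrx1, Twist1, Twist2, Snai2 and Snai1. Among all genes, 33.4% passed in this comparison and 15.4% did so as higher in HRAS. The median difference was 0.43 over the 10 genes and -0.03 over all genes. The ranges of the 2 groups did not overlap for 2 of the 10 genes, Prrx1 and Twist2, against 15.8% of all genes.

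Prrx1 (probe set 10359624) encodes a paired-related homeobox factor of limb and craniofacial mesenchyme that is also counted among EMT inducers. Its values were 10.73, 10.53, 10.55, 10.02 and 10.88 in HRAS. In MYC its lowest, median and highest values were 4.68, 6.36 and 8.08, and 5 of 6 MYC arrays were above the olfactory receptor level. The 2 groups did not overlap, and within MYC the values spread more than 3 log2 units, with an SD of 1.18 against 0.32 in HRAS. The difference was 4.08 ± 0.38 (SE), a 16.9-fold higher level in HRAS (limma, adjusted p = 2.68e-09). Without MYC replicates 4 and 5 it was 3.50 (limma, adjusted p = 5.46e-09).

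Twist1 (probe set 10395320) and Twist2 (probe set 10348632) encode related basic helix-loop-helix factors of mesoderm and mesenchyme, but they were not highest in the same groups. Twist1 was at 9.50, 9.12, 9.51, 10.08 and 7.20 in HRAS and had a lowest, median and highest value of 6.06, 6.32 and 8.90 in MYC. One HRAS array, replicate 5, lay within the MYC range, and 1 MYC array, replicate 5, lay above all other MYC arrays. The difference was 2.33 ± 0.49 (limma, adjusted p = 0.000386). Twist2 was at 6.26, 7.26, 7.48, 6.95 and 9.27 in HRAS and at 5.62, 5.80 and 6.05 as the lowest, median and highest in MYC. The HRAS array with the lowest Twist1 was the one with the highest Twist2. The Twist2 difference was 1.61 ± 0.32 (limma, adjusted p = 0.000191).

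Snai1 (probe set 10478884) and Snai2 (probe set 10433776) encode Snail and Slug, zinc finger repressors, and both differed less. Snai1 was at 7.18, 7.76, 6.84, 7.34 and 7.06 in HRAS against 6.24, 6.55 and 7.06 as the lowest, median and highest in MYC. The ranges overlapped, and the difference was 0.65 ± 0.21 (limma, adjusted p = 0.0151). The Snai1 call was lost without HRAS replicate 2 (adjusted p = 0.0637). Snai2 was at 6.32, 4.89, 5.66, 5.10 and 4.99 in HRAS, above the olfactory receptor level on 3 of 5 arrays. In MYC its lowest, median and highest values were 4.05, 4.31 and 5.35, above that level on 1 of 6. Most Snai2 values were thus near the weak end of the scale, and the difference was 0.95 ± 0.28 (limma, adjusted p = 0.00858).

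The Zeb genes, the cadherins and Epcam did not pass between HRAS and MYC. The differences were -0.34 ± 0.37 for Zeb1, 0.22 ± 0.34 for Zeb2, 0.20 ± 0.25 for Cdh1, -0.06 ± 0.25 for Cdh2 and -0.02 ± 0.36 for Epcam, with limma adjusted p between 0.552 and 0.979. For Zeb2 the sign depended on the MYC arrays: without MYC replicates 4 and 5 it was -0.42, and Zeb1 was at -0.57.

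**Figure D2:**
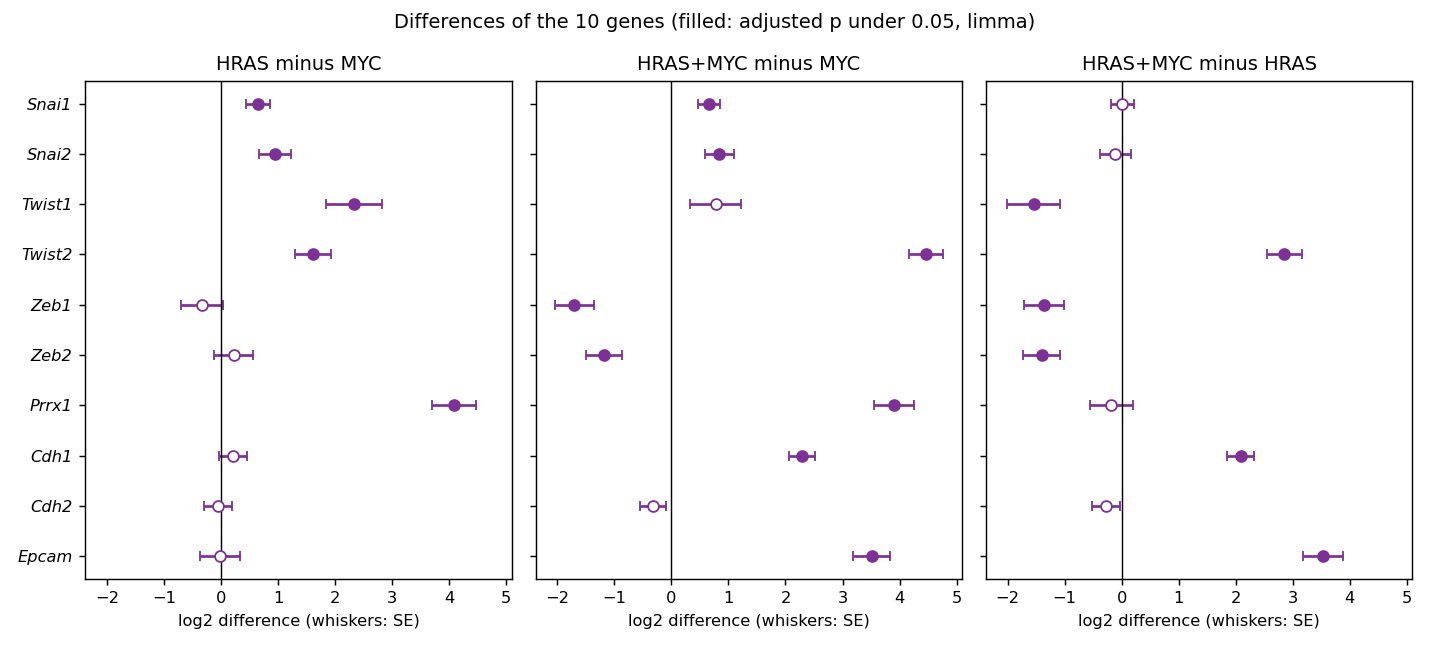
Log2 differences of the 10 genes between HRAS and MYC, HRAS+MYC and MYC, and HRAS+MYC and HRAS, with whiskers of 1 SE from limma and filled points where the adjusted p was under 0.05. Prrx1 differs by 4.08 and 3.90 from MYC and by -0.18 between HRAS+MYC and HRAS, while Cdh1 and Epcam differ in both comparisons of HRAS+MYC.

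In the HRAS+MYC group, Cdh1 and Epcam were higher and Zeb1 and Zeb2 lower than in the tumours of either oncogene alone. The groups that received both oncogenes in sequence are described further below. These comparisons share the HRAS+MYC arrays, so they are not independent of each other. Against MYC, 8 of the 10 genes passed, 6 higher and 2 lower. Of all genes 34.2% passed there, 15.8% higher and 18.4% lower (25.2% and 14.8% with each array's median subtracted, which moved all genes by 0.106). Against HRAS, 6 of the 10 passed, 3 higher and 3 lower. Of all genes 24.7% passed there, 11.7% higher and 13.0% lower (16.1% and 10.6% with medians subtracted). The median difference over the 10 genes was 0.81 against MYC (0.03 over all genes) and -0.15 against HRAS (0.05 over all genes). Ranges did not overlap for 5 of the 10 genes against MYC (15.4% of all genes) and for 4 against HRAS (12.3% of all genes).

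Epcam (probe set 10447383) encodes a homophilic adhesion protein of simple epithelia and of pluripotent cells. Its lowest, median and highest values in HRAS+MYC were 7.83, 9.05 and 9.98. In MYC they were 5.11, 5.43 and 6.04, and the HRAS arrays were at 5.65, 6.44, 4.97, 4.95 and 5.54. All 7 HRAS+MYC arrays were above all arrays of both single-oncogene groups. The difference was 3.51 ± 0.33 against MYC, 11.4-fold (limma, adjusted p = 1.92e-09), and 3.53 ± 0.35 against HRAS, 11.6-fold (limma, adjusted p = 2.20e-08).

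Cdh1 (probe set 10575052) had a lowest, median and highest value of 6.86, 7.62 and 8.66 in HRAS+MYC. In MYC these were 4.95, 5.31 and 5.87, and the HRAS arrays were at 5.45, 5.90, 5.24, 5.49 and 5.60. The groups again did not overlap, and the single-oncogene values lay less than 1 log2 unit above the olfactory receptor level. The difference was 2.29 ± 0.23 against MYC, 4.88-fold (limma, adjusted p = 4.93e-09), and 2.08 ± 0.24 against HRAS, 4.24-fold (limma, adjusted p = 2.83e-07).

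Cdh2 (probe set 10457644) was high in every group and had no counterpart to the rise in Cdh1. Its lowest, median and highest values were 9.70, 9.995 and 10.25 in HRAS+MYC and 10.03, 10.20 and 10.67 in MYC, and the HRAS arrays were at 10.76, 10.38, 10.81, 9.50 and 9.69. The ranges overlapped in each comparison. The difference was -0.33 ± 0.23 against MYC (limma, adjusted p = 0.287) and -0.27 ± 0.24 against HRAS (limma, adjusted p = 0.454). A miss of the threshold does not show that Cdh2 was equal in these groups.

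Zeb1 (probe set 10453678) and Zeb2 (probe set 10482448), zinc finger and homeodomain repressors of Cdh1 and of other epithelial genes, were lower in HRAS+MYC. Zeb1 had a lowest, median and highest value of 7.40, 8.19 and 8.66 in HRAS+MYC and of 9.33, 9.93 and 10.23 in MYC. The HRAS arrays were at 9.78, 8.73, 10.56, 9.76 and 8.51. Zeb1 did not overlap between HRAS+MYC and MYC, while 1 HRAS array, replicate 5, lay within the HRAS+MYC range. The difference was -1.70 ± 0.34 against MYC (limma, adjusted p = 0.000218) and -1.36 ± 0.36 against HRAS (limma, adjusted p = 0.00534).

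Zeb2 was at 6.62, 7.46 and 7.64 as the lowest, median and highest in HRAS+MYC and at 6.82, 8.96 and 9.47 in MYC. The HRAS arrays were at 8.68, 8.33, 9.13, 8.85 and 8.79, all above the HRAS+MYC range. In MYC, replicates 4 and 5 were at 6.82 and 7.69 and the other 4 arrays between 8.87 and 9.47. The difference was -1.18 ± 0.31 against MYC (limma, adjusted p = 0.00362), and -1.82 without MYC replicates 4 and 5 (adjusted p = 2.74e-07). Against HRAS it was -1.40 ± 0.33 (limma, adjusted p = 0.00200).

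**Figure D3:**
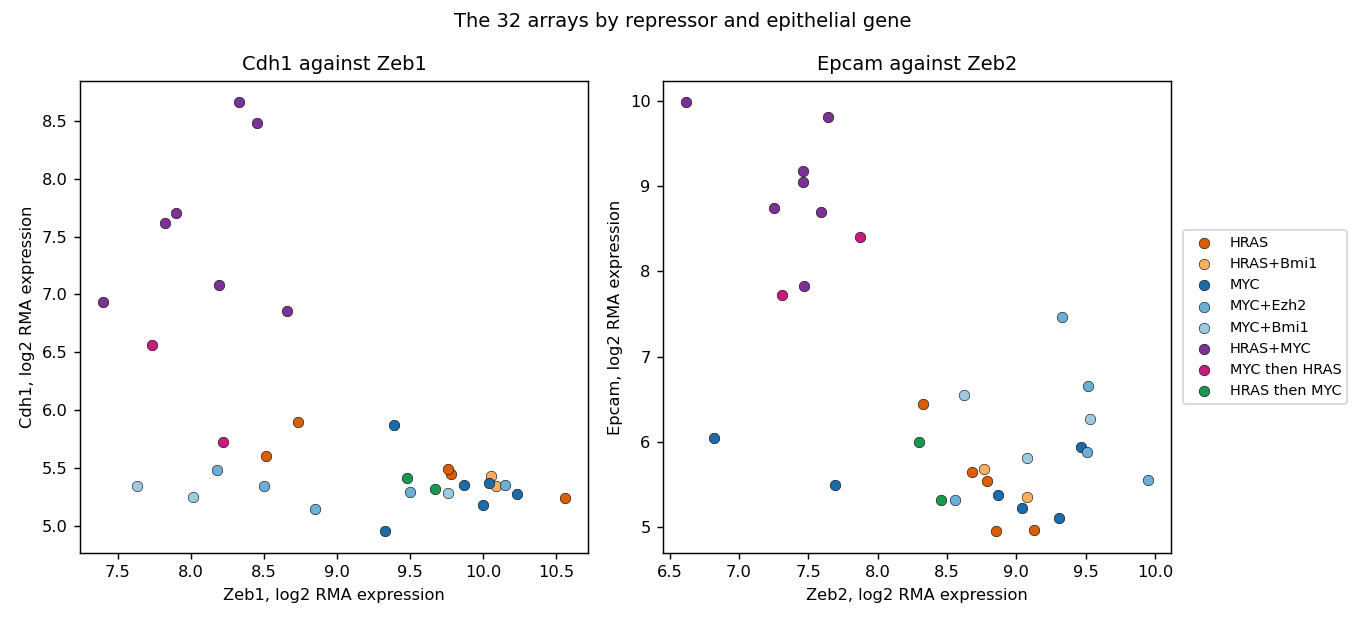
Cdh1 against Zeb1 (left) and Epcam against Zeb2 (right), in log2 units, with 1 point for each of the 32 arrays, coloured by group. The HRAS+MYC arrays lie at the lower Zeb2 and higher Epcam end, with Zeb2 up to 7.64 and Epcam from 7.83. A low value of 1 Zeb gene alone also occurs without high epithelial values. MYC replicates 4 and 5 have Zeb2 at 6.82 and 7.69 and Epcam at 6.04 and 5.49, with Zeb1 at 9.33 and 9.39. MYC+Bmi1 replicates 2 and 3 have Zeb1 at 7.63 and 8.01 and Cdh1 at 5.34 and 5.25, with Zeb2 at 9.53 and 8.62.

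The mesenchymal factors did not fall together when the epithelial genes rose. Prrx1 in HRAS+MYC had a lowest, median and highest value of 9.35, 10.55 and 10.84, and overlapped HRAS. Prrx1 differed by 3.90 ± 0.35 from MYC, 14.9-fold (limma, adjusted p = 1.05e-09), and by -0.18 ± 0.37 from HRAS (limma, adjusted p = 0.775).

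Twist2 reached 9.75, 10.18 and 10.98 as the lowest, median and highest in HRAS+MYC, above every HRAS and every MYC array. It was higher by 4.46 ± 0.29 than in MYC, 22.1-fold (limma, adjusted p = 2.00e-12), and by 2.85 ± 0.31 than in HRAS, 7.21-fold (limma, adjusted p = 1.10e-07). Twist1 went the other way against HRAS, with a lowest, median and highest value of 6.77, 7.42 and 8.68 in HRAS+MYC. It was lower than in HRAS, at -1.55 ± 0.47 (limma, adjusted p = 0.0160), a call that was lost without HRAS replicate 4 (adjusted p = 0.0637). Against MYC it was 0.78 ± 0.45 (limma, adjusted p = 0.190), and 1.34 without MYC replicates 4 and 5 (adjusted p = 0.0158).

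Snai1 in HRAS+MYC had a lowest, median and highest value of 6.84, 7.06 and 8.03, and Snai2 one of 4.71, 5.08 and 6.65, above the olfactory receptor level on 2 of 7 arrays. Both were higher than in MYC, Snai1 by 0.66 ± 0.19 (limma, adjusted p = 0.00742) and Snai2 by 0.84 ± 0.26 (limma, adjusted p = 0.0116). With these 2 groups fitted alone, Snai2 no longer passed (adjusted p = 0.0527). Against HRAS, Snai1 differed by 0.01 ± 0.20 and Snai2 by -0.11 ± 0.27 (limma, adjusted p = 0.980 and 0.810).

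The sequential groups set the 2 orders of the oncogenes beside each other, with 2 arrays each. Order cannot be told apart there from the starting tumour, a PNET for MYC then HRAS and a glioma for HRAS then MYC. Secondary tumours are described above only for MYC then HRAS, and the part of that step was not tested. In MYC then HRAS, where HRAS came second, 4 of the 10 genes passed against MYC, 3 higher and 1 lower. Of all genes 20.4% passed, 9.83% higher and 10.6% lower (12.6% and 8.34% with medians subtracted). Ranges did not overlap for 4 of the 10 genes, against 28.0% of all genes. Twist2 was at 10.01 and 10.86, higher than in MYC by 4.60 ± 0.43, 24.3-fold (limma, adjusted p = 8.6e-09). Prrx1 was at 10.001 and 10.69, higher by 3.88 ± 0.52 (limma, adjusted p = 3.1e-06).

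Epcam was at 7.72 and 8.40, above every MYC array and higher by 2.53 ± 0.48, 5.78-fold (limma, adjusted p = 0.00032). Zeb1 was at 8.22 and 7.73, with a difference of -1.83 ± 0.50 (limma, adjusted p = 0.00843). The Zeb1 call was lost without MYC then HRAS replicate 2 (adjusted p = 0.150).

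Cdh1 was at 5.72 and 6.56, the first of which lay within the MYC range, and it did not pass (0.81 ± 0.33, limma, adjusted p = 0.0878). Zeb2 was at 7.31 and 7.87 and did not pass either (-0.94 ± 0.46, limma, adjusted p = 0.154). Without MYC replicates 4 and 5, Zeb2 passed at -1.58 (adjusted p = 0.000350). Snai1, at 6.97 and 7.71, differed by 0.75 ± 0.28 (limma, adjusted p = 0.0544), and passed without MYC replicates 4 and 5 (adjusted p = 0.0249).

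In HRAS then MYC, where MYC came second, 1 of the 10 genes passed against HRAS, as higher, where 12.5% of all genes passed and 6.30% as higher (12.4% as higher with medians subtracted, which moved all genes by 0.148). Twist2 was at 9.39 and 9.21, higher than in HRAS by 1.85 ± 0.44 (limma, adjusted p = 0.00533). HRAS replicate 5, at 9.27, lay between these arrays, and the Twist2 call was lost without either of the HRAS then MYC arrays (adjusted p = 0.0778 without replicate 1 and 0.0713 without replicate 2). Ranges did not overlap for 1 of the 10 genes, against 28.6% of all genes.

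The epithelial genes stayed at the level of the single-oncogene groups in HRAS then MYC. Cdh1 was at 5.41 and 5.32, Epcam at 6.00 and 5.32, Zeb1 at 9.48 and 9.67 and Zeb2 at 8.30 and 8.46. Twist1 was at 9.26 on one array and 7.28 on the other. Snai1 was at 7.56 and 7.95 and differed from HRAS by 0.52 (limma, adjusted p = 0.278). Snai2, at 4.56 and 4.50, differed by -0.86 (limma, adjusted p = 0.160), and Cdh2, at 9.56 and 9.27, by -0.81 (limma, adjusted p = 0.134).

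Set against HRAS+MYC directly, 3 of the 10 genes passed in HRAS then MYC, 1 higher and 2 lower. Of all genes 12.1% passed, 6.89% higher and 5.17% lower (8.71% and 4.01% with medians subtracted). Epcam was lower, with a difference of -3.38 ± 0.47, or 10.4-fold (limma, adjusted p = 1.5e-05), and Cdh1 was lower, with a difference of -2.25 ± 0.33, or 4.77-fold (limma, adjusted p = 2.3e-05). Zeb1 was higher by 1.47 ± 0.49 (limma, adjusted p = 0.0476), and this call was lost in 7 of the 9 fits that left out 1 array, with adjusted p up to 0.354. Ranges did not overlap for 7 of the 10 genes, against 27.9% of all genes. In MYC then HRAS none of the 10 genes passed against HRAS+MYC, against 0.110% of all genes. The largest difference among the 10 was that of Cdh1, at -1.48 ± 0.33 (limma, adjusted p = 0.0672). Ranges did not overlap for 2 of the 10 genes, Cdh1 among them, against 10.7% of all genes.

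Between both orders, 1 of the 10 genes passed, as higher in MYC then HRAS, where 3.28% of all genes passed and 1.70% as higher (1.37% with medians subtracted). Ranges of 2 arrays each did not overlap for 7 of the 10, against 49.7% of all genes. Epcam was higher in MYC then HRAS than in HRAS then MYC by 2.40 ± 0.59 (limma, adjusted p = 0.0189). The call was lost without replicate 2 of either group (adjusted p = 0.278 and 0.308). Zeb1 differed by -1.60 ± 0.61 (limma, adjusted p = 0.184) and Twist1 by -1.69, with 2 arrays on each side.

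Where a Polycomb gene was added to MYC or HRAS, none of the 10 genes passed. Few of all genes passed either, so this is not particular to the 10. A miss of the threshold does not show that a gene was unchanged. Ezh2 encodes the histone methyltransferase of Polycomb repressive complex 2, and Bmi1 a subunit of Polycomb repressive complex 1. In MYC+Ezh2 against MYC, 0 of the 10 genes passed in limma, against 0.246% of all genes. Zeb1 was at 10.15, 9.50, 8.18, 8.85 and 8.50 (difference -0.77 ± 0.37, limma, adjusted p = 0.454), and Zeb2 at 8.56, 9.95, 9.52, 9.51 and 9.33 (difference 0.84 ± 0.34, limma, adjusted p = 0.364). Both ranges overlapped those of MYC, and without MYC replicates 4 and 5 the Zeb2 difference was 0.20 (limma, adjusted p = 0.846). Prrx1, at 5.72, 6.56, 5.43, 5.64 and 5.58, lay within the MYC range (difference -0.68 ± 0.38, limma, adjusted p = 0.544). Without MYC replicates 4 and 5 the Prrx1 difference was -1.26 (limma, adjusted p = 0.0639). Epcam was at 5.32, 5.55, 6.65, 5.88 and 7.46, with its highest array above the MYC range (difference 0.64 ± 0.36, limma, adjusted p = 0.537).

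In MYC+Bmi1 against MYC, 0 of the 10 genes passed in limma, against 0.150% of all genes. Zeb1 was at 9.76, 7.63 and 8.01 (difference -1.34 ± 0.43, limma, adjusted p = 0.213). One array lay within the MYC range and the others below it, and without MYC+Bmi1 replicate 1 Zeb1 passed at -1.99 (adjusted p = 0.0216). Zeb2 was at 9.08, 9.53 and 8.62 (difference 0.54 ± 0.39, limma, adjusted p = 0.629). Twist1 was at 5.70, 6.09 and 6.21 (difference -0.75 ± 0.57, limma, adjusted p = 0.645), and Epcam at 5.81, 6.27 and 6.55 (difference 0.68 ± 0.42, limma, adjusted p = 0.551). Without MYC replicates 4 and 5 the Zeb2 difference was -0.10 and that of Twist1 -0.19 (limma, adjusted p = 0.947 and 0.945).

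In HRAS+Bmi1 against HRAS, 0 of the 10 genes passed in limma, against 5.91% of all genes. Ranges did not overlap for 3 of the 10 genes, against 22.7% of all genes. Cdh2 was at 11.38 and 11.23, above every other array of the study (difference from HRAS 1.08 ± 0.35, limma, adjusted p = 0.0626). Without HRAS replicate 1 or 3 it passed (adjusted p = 0.0377 and 0.0247). Snai2 was at 4.27 and 4.13, under the olfactory receptor level on both arrays (difference -1.19 ± 0.39, limma, adjusted p = 0.0660), and passed without HRAS replicate 2 (adjusted p = 0.0484). Twist1 was at 6.91 and 7.60 (difference -1.83 ± 0.67, limma, adjusted p = 0.116), with HRAS replicate 5, at 7.20, between them, and without that array it passed (adjusted p = 0.0273). Snai1, at 6.77 and 6.48, differed by -0.61 ± 0.28 (limma, adjusted p = 0.244).

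The effect of Bmi1 in HRAS cells was set against its effect in MYC cells. No gene of the 10 passed in limma, against 2.43% of all genes. The largest differences between effects among the 10 were 1.94 ± 0.67 for Zeb1 (limma, adjusted p = 0.121) and 1.22 ± 0.45 for Cdh2 (limma, adjusted p = 0.153).

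Across all 8 groups, Prrx1 and Twist2 varied most, with group means spanning 4.88 and 4.60 log2 units against a pooled within-group SD of 0.67 and 0.55. Epcam spanned 3.53 (SD 0.62), Twist1 3.08 (SD 0.85), Cdh1 2.33 (SD 0.42), Zeb1 2.10 (SD 0.64) and Zeb2 2.02 (SD 0.59). Cdh2 spanned 1.89 (SD 0.43), Snai2 1.19 (SD 0.48) and Snai1 1.18 (SD 0.35). In order of means, Twist2 was highest in MYC then HRAS and HRAS+MYC, which overlapped, then in HRAS then MYC, then in HRAS+Bmi1 and HRAS, which overlapped, and last in the 3 groups without HRAS, which overlapped. The highest HRAS array, at 9.27, lay within the HRAS then MYC range. Prrx1 had 1 step only, between the 5 groups with HRAS and the 3 without. Epcam had 1 step as well, between HRAS+MYC and MYC then HRAS on one side and the other 6 groups on the other. For Cdh1 the step lay between HRAS+MYC and all other groups. Zeb2 was lower in MYC then HRAS and HRAS+MYC than in 5 of the other 6 groups without overlap, while MYC, at 6.82 to 9.47, overlapped all groups. Neighbouring groups overlapped throughout for Snai1, Twist1 and Zeb1. For Cdh2, HRAS+Bmi1 lay above all other groups. HRAS then MYC, at 9.27 and 9.56, had the lowest Cdh2 mean but overlapped HRAS and MYC+Bmi1. Snai2 had its lowest mean in HRAS+Bmi1, where both values lay within the MYC range.

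On the 9 arrays of HRAS+MYC and MYC then HRAS, Epcam ran from 7.72 to 9.98, and on the other 23 arrays from 4.95 to 7.46. Twist2 was also separate, at 9.75 to 10.98 against 5.62 to 9.39. Cdh1 overlapped narrowly (5.72 to 8.66 against 4.95 to 5.90), and Zeb1 (7.40 to 8.66 against 7.63 to 10.56) and Zeb2 (6.62 to 7.87 against 6.82 to 9.95) more widely.

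Other epithelial genes moved with Cdh1 and Epcam. Of 26 listed epithelial identity factors and junction genes, 25 were measured, and in HRAS+MYC 17 were higher and none lower against MYC in limma, with a median difference of 1.05 against 0.03 over all genes, of which 15.8% were higher and 18.4% lower. Against HRAS, 17 were higher and none lower as well, with a median of 0.77, where 11.7% of all genes were higher and 13.0% lower. Between HRAS and MYC, 3 were higher and none lower, against 15.4% and 18.0% of all genes: Klf4 (2.60), Spint1 (2.43) and Klf5 (1.28), that is 2 Krüppel-like transcription factors and an inhibitor of membrane serine proteases. Against MYC, the tight junction gene Cldn6 differed by 4.58 ± 0.64 (limma, adjusted p = 1.75e-06), Spint1 by 3.65 and its relative Spint2 by 2.94. Against HRAS, Spint2 differed by 3.97, and the tight junction genes Ocln and Marveld2 by 2.37 and 2.00 (limma, adjusted p = 5.78e-06, 2.64e-05 and 4.21e-09).

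In MYC then HRAS, 10 of the 25 epithelial genes were higher than in MYC and none lower, against 9.83% and 10.6% of all genes, and the count was 9 without MYC replicates 4 and 5 and 6 without MYC then HRAS replicate 2. In HRAS then MYC, none was higher than in HRAS and 2 were lower, against 6.30% and 6.21% of all genes. In HRAS then MYC 16 of the 25 were lower than in HRAS+MYC and none was higher, against 5.17% and 6.89% of all genes, and 9 were lower without HRAS then MYC replicate 2. Esrp1, a splicing regulator of epithelial cells, had a mean of 6.53 in HRAS+MYC and of 4.90 in MYC then HRAS, which is under the olfactory receptor level. Its mean was 4.43 in HRAS then MYC.

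**Figure D4:**
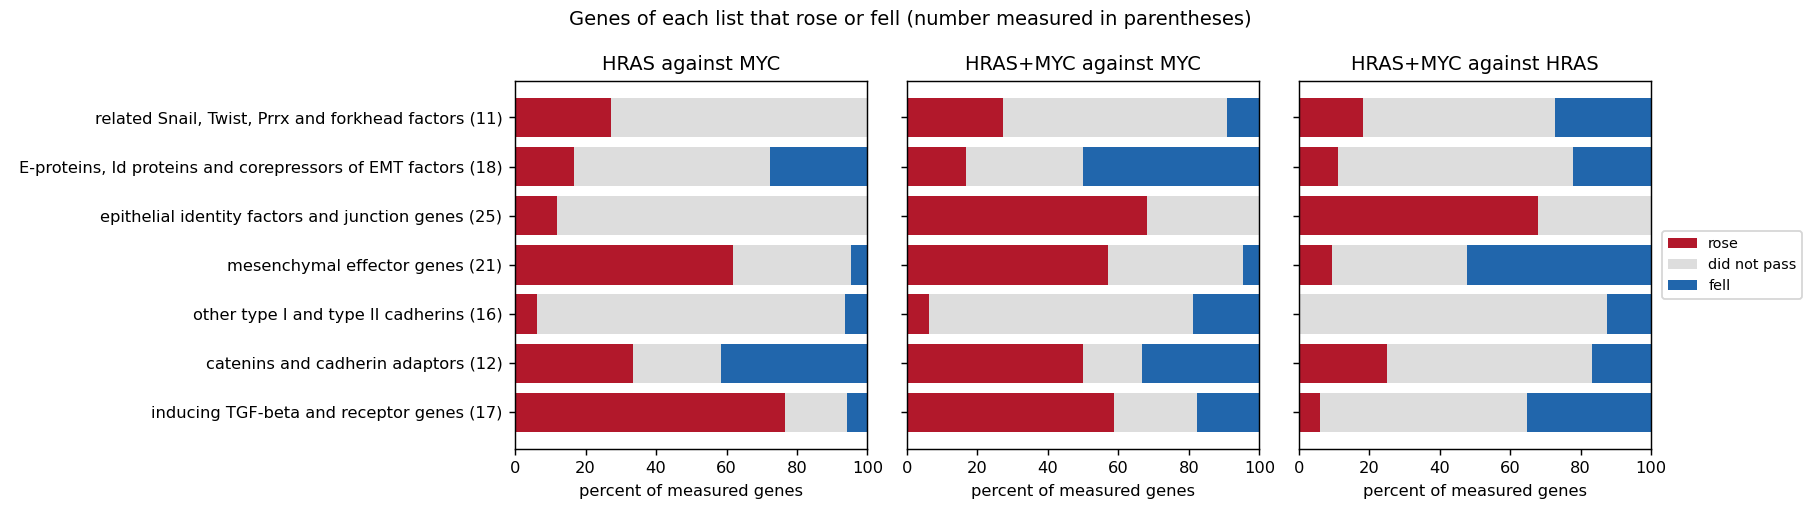
Percent of the measured genes of each list (x axis) that rose, fell or did not pass at a limma adjusted p under 0.05 in 3 comparisons, with the number measured beside each list name. Of the 25 epithelial genes 17 are higher in HRAS+MYC against both MYC and HRAS, and of the 21 mesenchymal effector genes 11 are lower in HRAS+MYC than in HRAS.

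Mesenchymal effector genes did not move as the opposite of the epithelial genes in each comparison. Of 24 listed, 21 were measured. In HRAS, 13 were higher and 1 lower than in MYC (median 2.21), where 15.4% of all genes were higher and 18.0% lower, led by Sparc (5.19), Tgfbi (5.10) and the receptor tyrosine kinase gene Axl (5.01). In HRAS+MYC, 12 were higher and 1 lower than in MYC (median 0.75; 15.8% and 18.4% of all genes), among them Axl (3.33), S100a4 (3.02) and Tgfbi (2.98). Against HRAS, however, 2 were higher and 11 lower in HRAS+MYC (median -0.79; 11.7% and 13.0% of all genes). The median over all genes was -0.03, 0.03 and 0.05 in these comparisons. The extracellular matrix genes Fn1 and Tnc were lower with differences of -4.85 ± 0.44 and -4.71 ± 0.54 (limma, adjusted p = 6.44e-09 and 2.76e-07), and the membrane protease gene Mmp14 with one of -2.73. The intermediate filament gene Vim was at 12.98 to 13.34 in HRAS+MYC and at 13.56 to 13.86 in HRAS, and did not pass (-0.49 ± 0.32, limma, adjusted p = 0.295). Its MYC arrays lay below both, at 9.16 to 12.38.

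Of 17 genes of the TGF-beta pathway and other inducers of EMT, 13 were higher and 1 lower in HRAS than in MYC (median 1.35), and 10 higher and 3 lower in HRAS+MYC than in MYC (median 0.87). Among all genes these shares were 15.4% and 18.0%, and 15.8% and 18.4%. Hmga2, a chromatin factor that acts upstream of Snai1 and Twist1 in TGF-beta signalling, differed by 4.57 and 3.41 in these comparisons, the AP-1 gene Fosl1 by 4.48 and 4.33, and the ligand gene Tgfb1 by 3.57 and 4.30. In HRAS+MYC against HRAS 1 was higher and 6 were lower (median -0.32), against 11.7% and 13.0% of all genes, with the ligand genes Tgfb3 at -2.58 and Tgfb2 at -2.13.

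Among 12 catenin and adaptor genes, which tie cadherins to the cytoskeleton, 4 were higher and 5 lower in HRAS than in MYC (median 0.10), and 6 higher and 4 lower in HRAS+MYC than in MYC (median 0.14). In either direction 33.4% and 34.2% of all genes passed in these comparisons. Jup, which encodes plakoglobin, was higher in HRAS+MYC by 2.24 against MYC and 1.53 against HRAS. The neural catenin gene Ctnnd2 was lower than in MYC, with differences of -2.13 in HRAS and -2.32 in HRAS+MYC. Of 16 other cadherin genes 1 was higher and 1 lower in HRAS than in MYC, and 1 was higher and 3 lower in HRAS+MYC than in MYC, so that a smaller share of them passed than of all genes. Cdh6 was the higher one in both, at 3.59 and 1.60, and Cdh10 was lower in HRAS+MYC at -2.24.

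Of 18 genes for E-proteins, Id proteins and corepressors, the partners and antagonists of Twist, Snail and Zeb factors, 3 were higher and 5 lower in HRAS than in MYC (15.4% and 18.0% of all genes), and 3 higher and 9 lower in HRAS+MYC than in MYC (15.8% and 18.4%). Id1, an inhibitor of E-protein binding, differed from MYC by 1.25 in HRAS and 2.57 in HRAS+MYC, and the E-protein gene Tcf4 by -0.77 and -1.69. The Id genes did not move together. Id2 and Id4 were lower in HRAS+MYC than in MYC, at -2.08 and -1.77 (limma, adjusted p = 0.000301 and 0.00347). Id3 did not pass there (1.03, limma, adjusted p = 0.209). Of 11 related factor genes measured, 3 were higher and none lower in HRAS than in MYC, with Prrx2, the closest relative of Prrx1, at 1.86 and the forkhead gene Foxc1 at 1.42. Prrx2 was lower in HRAS+MYC than in HRAS, at -1.14 (limma, adjusted p = 9.59e-05), a step that Prrx1 did not take past the threshold. Foxc1 was lower there as well, at -0.80 (limma, adjusted p = 0.0440). The forkhead gene Foxq1 was higher in HRAS+MYC by 1.24 against MYC and 1.10 against HRAS (limma, adjusted p = 8.94e-09 and 6.47e-07).

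Marker genes of other cell types were followed beside these lists, because in bulk RNA fewer cells of a type and less RNA per cell cannot be told apart. For 10 fibroblast and meningeal markers the array means of the list lay between 6.27 and 6.96 for HRAS, between 4.95 and 6.03 for MYC and between 5.84 and 6.08 for HRAS+MYC, and 5 of the 10 were higher in HRAS than in MYC, against 15.4% of all genes. In HRAS+MYC 2 were higher and 1 lower than in MYC, against 15.8% and 18.4% of all genes. For 8 pericyte markers the ranges were 5.55 to 5.98, 5.04 to 5.53 and 5.36 to 5.63, with 3 higher in HRAS than in MYC. For 8 endothelial markers they were 5.10 to 5.40, 4.83 to 5.05 and 5.05 to 5.48, with 2 higher in HRAS than in MYC and 1 higher in HRAS+MYC than in MYC. None of the 8 passed between HRAS+MYC and HRAS, against 24.7% of all genes. The part of these cell types in the differences of the 10 genes and of the lists was not tested. The 8 microglia and macrophage markers had array means between 4.55 and 5.02 in these 3 groups, with at most 3 of 8 group means above the olfactory receptor level, and the 8 choroid plexus and ependymal markers between 4.70 and 5.34. Of the 8 neural stem cell markers, 7 or 8 had means above the olfactory receptor level in HRAS, MYC and HRAS+MYC. In HRAS+MYC 6 were lower than in MYC, against 18.4% of all genes. This was not particular to HRAS+MYC: Fabp7, Hes5, Prom1 and Msi1 were also lower in HRAS than in MYC, while Nes was higher. Against HRAS, Nes and Pax6 were lower in HRAS+MYC.

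The genes whose pattern over the 32 arrays was most like that of each varying gene were found by the root mean square difference between centred log2 values, a description in which all genes share the same arrays. For Cdh1 they were Esrp1 (0.351), Cnksr1 (0.356) and Myo7b (0.367), where Cdh1 itself deviated from its mean by 0.994. For Epcam they were Dsp (0.625), Gdpd3 (0.693) and Cxcl16 (0.696), against 1.52 for Epcam itself. Dsp, the desmosome gene desmoplakin, had means of 8.83 in HRAS+MYC and 7.78 in MYC then HRAS, and between 5.03 and 5.47 in the other 6 groups. For Twist2 they were Lgals7 (0.748), Lgals3 (0.763) and Sigirr (0.790), against 1.93. For Prrx1 they were Rhoc (0.676), Mlkl (0.726) and Runx1 (0.728), against 2.21. Runx1 had means from 8.33 to 9.57 in the groups with HRAS and from 5.27 to 5.52 in those without it. For Zeb2 they were Kat6b (0.406), Napepld (0.491) and Negr1 (0.492), against 0.875, and for Zeb1 Tnik (0.489), Tpmt (0.545) and Decr1 (0.563), against 0.908. The nearest genes to Twist1 were Utrn (0.758), Ttll7 (0.787) and Igf2r (0.791), not far below the 1.21 of Twist1 itself.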

How the data were processed

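Expression was measured on 32 arrays, grouped by their titles into 8 groups. The deposited log2 values hold 1 number for each probe set on each array. Per the submitters' processing notes, the authors used RMA and Affymetrix Expression Console 1.0; that the scale is log2 follows from the values. The quantile step of RMA makes probe distributions equal between arrays, so a general shift of RNA in a group would be hidden, and changes of weak probe sets are compressed. The number of arrays limits the precision, and no detection values were used. Of 35557 probe sets, the 21789 with 1 symbol in the platform annotation were used; for genes with several, the probe set with the highest mean was taken, which left 19938 genes.

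One mean per group was fitted to all arrays with limma 3.58.1 in R 4.3.3, with eBayes and 2-sided tests. P-values were Benjamini-Hochberg adjusted over all genes of a comparison, and a gene passed under 0.05. "Rose", "higher" and "lower" beside a count mean past that threshold. In a single simulated draw per comparison, the share of false calls was above the level aimed at in HRAS+Bmi1 against HRAS (9.33%). It was below that level in HRAS against MYC (3.98%) and between the 2 orders (3.05%). Genes were drawn independently there and fewer were changed than passed in the data, so the real shares may differ. Alternatives were array median centring, array weights, a trend and robust variance, the compared groups alone, the replicate number as a block, the mean of a gene's probe sets, genes above the olfactory receptor level alone, MYC without replicates 4 and 5, and leaving out each array in turn. The same alternatives for the gene lists were chosen after seeing the data. All 10 genes are named in the text. List genes were named from the 3 largest changes past the threshold, without overlap of the groups, in one of the first 3 comparisons. Not every gene that met this rule is named. Genes of like pattern are the 3 nearest to each gene whose group means spanned 2 log2 units or more. Vim, Sox2, Neurod1, Ezh2, Bmi1, Id2, Id3 and Id4 were named outside this rule, after their values were seen. The same holds for the named neural stem cell markers and the genes of the closing observations. The 10 genes and the lists were chosen with earlier results of these data known.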

Additional observations from a re-analysis of the deposited data

Results flagged for a closer look

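Among 40 gene and group pairs with 4 to 10 arrays, 5 had 1 array whose gap to the next exceeded Dixon's 95% critical value, where chance gives about 1 in 20. On MYC replicate 5, Twist1 was 8.90 against 6.06 to 6.84 on the other MYC arrays, and Snai2 was 5.35 against 4.05 to 4.49; this is also an array of low Sox2 and high Neurod1. On HRAS+MYC replicate 1, Zeb2 was 6.62 against 7.25 to 7.64. On MYC+Ezh2 replicate 2, Prrx1 was 6.56 against 5.43 to 5.72. On HRAS+MYC replicate 3, Prrx1 was 9.35 against 10.30 to 10.84.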

How the results depend on the processing

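Of 120 differences of the 10 genes, 28 passed; of their 514 alternative values 495 kept direction and call, 19 kept direction but no longer passed, and 0 reversed. Leaving out 1 array in turn, the number of the 10 genes that passed ran from 4 to 5 for HRAS against MYC, 8 to 9 for HRAS+MYC against MYC, 5 to 6 for HRAS+MYC against HRAS, 0 to 0 for MYC+Ezh2 against MYC, 3 to 6 for MYC then HRAS against MYC and 2 to 3 for HRAS then MYC against HRAS+MYC. It ran from 0 to 1 in each of the other 6. With array weights the count was 4 for HRAS+Bmi1 against HRAS, 3 for HRAS then MYC against HRAS, 7 for HRAS then MYC against HRAS+MYC, 2 between the orders, and 1 each for MYC then HRAS against HRAS+MYC and the Bmi1 effects. With the compared groups alone it was 0 for HRAS then MYC against HRAS, 5 for HRAS then MYC against HRAS+MYC and 2 between the orders. For HRAS+Bmi1 against HRAS it was 1 with array medians subtracted and 1 with only genes above the olfactory receptor level. The causes were not tested. Of the 25 epithelial genes, 17 to 21 rose in HRAS+MYC against MYC over 21 alternatives and 15 to 18 against HRAS over 19.

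Arrays with the same replicate number were mostly not alike. Over 79 pairs with the same number the median correlation of deviations was 0.0122 (range -0.301 to 0.433), against -0.0023 over 355 other pairs. Of the 79, 11 pairs were over 0.1, and 9 of 32 arrays correlated best with their own number. A median near 0 cannot show whether some of these arrays share an origin. With the replicate block, the count was 4 for HRAS against MYC (Snai1 adjusted p = 0.0511), 8 and 6 for HRAS+MYC against MYC and HRAS, 5 for MYC then HRAS against MYC, 2 for HRAS then MYC against HRAS+MYC, 1 for HRAS then MYC against HRAS, 1 between the orders and 0 in the others.

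Signs reversed where differences were small or rested on 1 array. Zeb2 in HRAS against MYC was -0.34 with array weights and -0.42 without MYC replicates 4 and 5, and -0.12 to 0.41 leaving out 1 array. Epcam there was 0.014 with array medians subtracted, 0.25 with array weights, 0.036 with the replicate block, 0.10 without MYC replicates 4 and 5 and -0.25 to 0.12 leaving out 1 array, and Cdh2 -0.20 to 0.12. In HRAS+MYC against HRAS, Snai1 was -0.15 with array weights and -0.12 to 0.14 leaving out 1 array, and Snai2 -0.34 to 0.12. Zeb2 in MYC+Bmi1 against MYC was -0.10 without MYC replicates 4 and 5. Twist1 in HRAS then MYC ran from -1.80 to 0.18 against HRAS and from -0.25 to 1.72 against HRAS+MYC leaving out 1 array. Another 39 differences under 0.5 are not printed; 66 of their 645 alternative values reversed and 0 passed.

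The number of all genes that passed moved by more than 1.5 times in 9 comparisons. For MYC+Ezh2 against MYC it was 49, and 554 with array weights, 1 with the groups alone, 9 with the replicate block, 202 without MYC replicates 4 and 5 and 4 to 233 leaving out 1 array. For MYC+Bmi1 against MYC it was 30, and 61, 1 and 245 with weights, groups alone and without these MYC arrays, and 9 to 234 leaving out 1 array. For HRAS+Bmi1 against HRAS it was 1178, and 3460 with weights, 533 alone and 199 to 1801 leaving out 1 array. For HRAS then MYC it was 2495 against HRAS (4384 with weights, 983 alone, down to 544 without 1 array) and 2405 against HRAS+MYC (5085 with weights, down to 605 without 1 array). For MYC then HRAS it was 4074 against MYC (2367 alone, down to 1900 without 1 array) and 22 against HRAS+MYC (150 with weights, up to 43 without 1 array). Between the orders it was 653 (1870 with weights, down to 195 without 1 array). For the Bmi1 effects it was 485 (1711 with weights, 135 alone, 745 without MYC replicates 4 and 5, 98 to 1099 without 1 array). Weak signal limits Snai2, whose values lay mostly under the olfactory receptor level.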

Other observations

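The HRAS gliomas were not uniform for these genes. HRAS replicate 5 had Twist1 at 7.20 (others 9.12 to 10.08), Twist2 at 9.27 (others 6.26 to 7.48), Zeb1 at 8.51 (others 8.73 to 10.56) and Fn1 at 9.53 (others 10.96 to 12.10). Lgals7, the gene nearest to Twist2 in pattern, was at 8.84 on this array and between 5.75 and 6.23 on the other HRAS arrays. Its Cdh1 and Epcam, at 5.60 and 5.54, stayed within the range of the other HRAS arrays. HRAS replicate 2 instead had the highest Epcam of the group, 6.44, with Cldn6 at 10.47 and Spint2 at 9.39, against 4.90 to 7.67 and 5.61 to 7.33 on the others.

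The miR-200 family and miR-205 target Zeb1 and Zeb2 in epithelial cells, and their hairpin probe sets were looked at after their values were seen. Mir141 (2.85 to 3.69), Mir200b (3.15 to 4.33), Mir200c (3.67 to 4.97) and Mir205 (3.06 to 4.10) were above the olfactory receptor level on 0 of 32 arrays, and Mir200a (4.95 to 5.55) was above it on 29. Mir200a, Mir141, Mir200b and Mir200c passed in 0 of 12 comparisons, and Mir205 in 1. Mature miRNAs were not analysed here.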
